A study of Mus musculus with 12 samples.

Results

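To compare stimulation of either NOD receptor with no stimulation, the 8 arrays of pulmonary endothelial cells stimulated with either NOD ligand were taken as one group and compared with the 4 arrays of unstimulated control cells. The stimulated group was formed from the treatment labels alone, as the 4 arrays labelled with the NOD1 ligand Tri-DAP (TD in the labels; arrays 5, 8, 11 and 14) and the 4 arrays labelled with the NOD2 ligand MDP (arrays 6, 9, 12 and 15). The controls were arrays 4, 7, 10 and 13. These 12 arrays are the whole series. All groups held primary endothelial cells from lungs of wild type mice, which the methods describe as male C57BL/6N mice of 6 to 10 weeks, 3 mice per isolation, with cells selected on beads carrying antibodies to CD144 and CD31. Control, Tri-DAP and MDP cells shared 2 hours of serum starvation, and the ligands were given at 10 μg/mL for 6 hours. Animals were pooled within an isolation, and the labels do not say which arrays came from the same one of the 4 isolations.

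NOD1 and NOD2 are cytosolic receptors that sense fragments of bacterial peptidoglycan. Tri-DAP is a tripeptide with diaminopimelic acid and is bound by NOD1, whereas MDP, muramyl dipeptide, is sensed through NOD2. Both receptors pass the signal to the same adaptor kinase, RIP2, and from there to NF-κB and MAP kinases. miRNAs are short RNAs that guide Argonaute proteins to messenger RNAs, mainly through the seed, bases 2 to 8 of the mature strand. Several miRNA genes are themselves turned on by NF-κB, with miR-146a, miR-146b and miR-155 as the standard examples, and miR-146a feeds back on the same pathway by repressing adaptors upstream of NF-κB.

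The mature sequences of miRNAs that carry the comparison are shown first, 5′ to 3′, as RefSeq gives them for the mouse build GRCm38.p6, with the seed in capitals. The first 5 were among the miRNAs of small p with an entry, or were called under another reference.
miR-142-3p: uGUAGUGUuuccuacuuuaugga
miR-23a-3p: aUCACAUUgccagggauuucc
miR-337-3p: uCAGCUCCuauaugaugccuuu
miR-296-3p: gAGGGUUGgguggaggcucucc
miR-495: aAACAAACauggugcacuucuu
The next 4 are the feedback miRNAs of the NF-κB pathway and the marker of endothelium.
miR-146a: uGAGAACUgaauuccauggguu
miR-146b: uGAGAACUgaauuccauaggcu
miR-155: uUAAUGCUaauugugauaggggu
miR-126-3p: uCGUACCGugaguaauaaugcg
The last 3 belong to the miRNAs that the study's screen listed as regulated on its arrays.
miR-298-5p: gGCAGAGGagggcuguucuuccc
miR-200a-3p: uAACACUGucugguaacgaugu
miR-203-3p: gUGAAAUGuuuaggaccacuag
For miR-146a, miR-146b, miR-155 and miR-495 the array's label names no arm, and the 5p arm was taken for the first 3 and the 3p arm for miR-495. miR-142-3p and miR-126-3p are listed in RefSeq as miR-142a-3p and miR-126a-3p. Among the sequences shown, miR-146a and miR-146b have the same seed, and the others have seeds of their own.

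Their places in GRCm38.p6 differ. miR-142-3p lies on the plus strand at chr11:87756903-87756925 and miR-23a-3p on the plus strand at chr8:84208563-84208583. miR-337-3p, at chr12:109585850-109585871 on the plus strand, lies within the bounds of Rtl1, and miR-495, at chr12:109718795-109718816, follows in the same imprinted cluster. miR-296-3p (chr2:174267058-174267079) and miR-298-5p (chr2:174267553-174267575) are neighbours on the minus strand of chromosome 2. miR-126-3p, at chr2:26591402-26591423 on the plus strand, lies within the bounds of Egfl7, and miR-155, at chr16:84714143-84714165 on the plus strand, within those of its noncoding host gene Mir155hg. miR-146a is at chr11:43374435-43374456 on the minus strand and miR-146b at chr19:46342790-46342811 on the plus strand. miR-200a-3p is at chr4:156054911-156054932 on the minus strand and miR-203-3p at chr12:112130927-112130948 on the plus strand.

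A TaqMan low-density array reads each RNA in 1 well and gives the PCR cycle (Ct) at which fluorescence crosses a threshold. A later Ct stands for less RNA, 1 cycle for a factor of 2, and a Ct of 40 for a well that reached no threshold, which was left out as undetermined. Levels below are log2 values, in cycles, after subtraction of the array's own mean U6 (4 wells), so that a more negative value is a lower level, and single levels are compared between arrays for 1 assay, not between assays. Of 375 miRNA assays, 231 to 254 were measured per array, with 174 measured on all 12 arrays and 55 on none, and the 235 that had 2 or more measured wells under every treatment were tested. Array depth in the sense of read counts does not apply, and the number of arrays limits the precision. The difference of U6 itself between the groups was smaller than its spread, with a mean Ct of 19.6 ± 0.357 (SD, n = 4) in control and 19.6 ± 1.08 (SD, n = 8) in stimulated cells (exact permutation test, two-sided, p = 0.947, adjusted p = 0.986 over 5 reference RNAs), but it spanned 18.3 to 21.6 on the stimulated arrays, with Tri-DAP 14 and Tri-DAP 8 at the ends, against 19.3 to 20.04 on the controls. The mean Ct of the 174 miRNAs varied less than U6 on the stimulated arrays, from 28.3 to 29.7, and about as much on the controls, from 28.2 to 29.0. Values relative to that mean are therefore given beside those relative to U6. This second scale removes any shift shared by all miRNAs.

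Arrays 7, 8 and 9, 1 of each treatment, stood apart in single assays. 6 miRNAs (miR-142-3p, miR-199a-5p, miR-211, miR-448, miR-542-5p and miR-551b) reached no threshold on exactly these 3 arrays and were measured on the other 9. For the other runs of 3 consecutive numbers, 4 to 6, 10 to 12 and 13 to 15, there were 0 such miRNAs. miR-708 crossed the threshold at Ct 21.97 to 22.6 on arrays 7, 8 and 9 and at 32.8 or later on the other 8 arrays that measured it. Arrays 13, 14 and 15, again 1 of each treatment, stood apart in level in other assays. There miR-145 crossed the threshold at Ct 23.1, 23.4 and 23.5, against 27.0 or later on the other arrays. For miR-199a-3p it was Ct 24.3 to 24.5, against 26.5 or later. The labels give no set, batch or isolation for the arrays, so results are given below for all 12 arrays. Some of those that change are given again without arrays 7, 8 and 9, or with runs of consecutive numbers entered as sets. No fit left out arrays 13, 14 and 15 together.

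The endothelial label held for its defining pair: miR-126-3p and miR-126-5p, which are processed from an intron of Egfl7, were measured on all 12 arrays, with mean Ct of 19.7 and 21.3. Other cell types also left signal. The 5 mural and fibroblast miRNAs (miR-143, miR-145, miR-199a-3p, miR-214 and miR-218) were measured on every array. Each of the 5 crossed the threshold earliest on control 13, Tri-DAP 14 and MDP 15. Of the 8 epithelial miRNAs, 2 were measured on every array and miR-205 on 1. Of the 5 muscle miRNAs none was measured on every array, and of the 6 leukocyte and red cell miRNAs 3 were (miR-150, miR-155 and miR-223, of which the last 2 also stand in the NF-κB list below). On a scale where 1 is the mean miRNA, the summed level of the mural list ranged from 2.68 to 89.7 on control and from 2.99 to 88.3 on stimulated arrays. The epithelial list ranged from 0.165 to 9.06 on control and from 0.365 to 3.92 on stimulated arrays, and the leukocyte list from 8.02 to 14.5 and from 8.54 to 13.8. These sums are set between arrays, not between lists, and the ranges of both groups overlapped for each list. In total RNA, fewer cells of a type and less RNA per cell cannot be told apart.

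Pooled over both ligands, 2 of 235 miRNAs differed from control at an unadjusted p under 0.05 by limma, a background of 0.851%, and both were lower: miR-147-3p and miR-124-3p. No miRNA was higher at that limit. The smallest adjusted p (limma, Benjamini-Hochberg over 235) was 0.999, and 0 miRNAs passed an unadjusted exact permutation test at the same limit. No miRNA measured on at least 3 control and 6 stimulated arrays separated the groups without overlap (0 of 215, 0%). Relative to the mean of the miRNAs, 3 of 235 (1.28%) were called: miR-142-3p higher, miR-147-3p and miR-495 lower. Without arrays 7, 8 and 9 there were 7 calls of 220 relative to U6, 2 higher and 5 lower, and with the sets in the fit 3 of 235, all lower (miR-124-3p, miR-337-3p and miR-23a-3p).

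miR-147-3p is a miRNA induced in macrophages by Toll-like receptor signals, where it restrains cytokine production. On the control arrays its level was -12.36 on array 4, -13.44 on array 7 and -11.67 on array 13, and it was undetermined on array 10. After Tri-DAP it was -13.84, -16.16 and -15.87 on arrays 5, 11 and 14 and undetermined on array 8, and after MDP it was -13.39 on array 9, -15.20 on array 12 and undetermined on arrays 6 and 15. All 5 stimulated values lay below the control mean, and the highest of them, MDP 9, lay just above the lowest control. The pooled difference was -2.40 (SE 0.803, 95% interval -4.20 to -0.60) on the log2 scale, or 5.28-fold lower. limma gave p = 0.0141 and adjusted p = 0.999, and the two-sided exact permutation test over 3 against 5 values gave p = 0.0536, where 0.0179 is the smallest it can give. Both ligands were on the same side, at -2.80 for Tri-DAP and -1.81 for MDP, and their difference was within its error (MDP minus Tri-DAP 0.99, 95% interval -1.32 to 3.31, limma adjusted p = 0.998). With undetermined wells set to Ct 40, which brings in the undetermined wells of both groups, the difference was -2.06 and no longer called, and without control 13 it was -1.99 and not called. With consecutive numbers as sets it was -1.88, and -1.26 relative to the mean of the miRNAs with the sets, and neither was called. Without arrays 7, 8 and 9 only 1 MDP value was left, and it was not tested. The assay crossed the threshold at a mean Ct of 33.3 where it was measured.

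miR-124-3p, known as the abundant neuronal miRNA and also studied as a brake on inflammatory signalling in macrophages, was measured on all 12 arrays. Its control levels were -10.27, -9.25, -6.64 and -9.41 on arrays 4, 7, 10 and 13. After Tri-DAP it was -14.03, -9.94, -14.64 and -8.95 on arrays 5, 8, 11 and 14, and after MDP it was -11.44, -8.97, -10.77 and -11.49 on arrays 6, 9, 12 and 15. All 8 stimulated values were below the control mean of -8.89, although Tri-DAP 8, Tri-DAP 14 and MDP 9 lay within the range of the controls, and the control mean was raised by array 10. The pooled difference was -2.38 (SE 1.09, 95% interval -4.73 to -0.04), or 5.22-fold lower, with limma p = 0.0467, adjusted p = 0.999, and exact permutation p = 0.0828. Tri-DAP stood at -2.995 and MDP at -1.77. Without control 10 the difference was -1.63, and relative to the mean of the miRNAs it was -2.25, and neither was called. Without arrays 7, 8 and 9 it was -3.11 and called. Of the other 5 neuronal assays, miR-128a and miR-129-3p were at -0.17 and -0.03, miR-9 was at 1.07, and miR-137 and miR-129-5p were measured on too few arrays to be tested.

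miR-142-3p, a miRNA of blood cells, was the highest-ranked miRNA in the upward direction. Its control levels were -15.39, -15.71 and -17.12 on arrays 4, 10 and 13, with array 7 undetermined. After Tri-DAP they were -14.66, -14.58 and -15.24 on arrays 5, 11 and 14, with array 8 undetermined, and after MDP they were -14.27, -15.68 and -12.80 on arrays 6, 12 and 15, with array 9 undetermined. Each of the 6 measured stimulated values was above the control mean, with MDP 12 inside the control range. The pooled difference of 1.54 (95% interval -0.02 to 3.10; 1.25 for Tri-DAP and 1.83 for MDP) had an exact permutation p of 0.0595 over 3 against 6 values and was not called relative to U6. Relative to the mean of the miRNAs it was 1.80 (95% interval 0.53 to 3.08) and called, with a limma adjusted p of 0.999. The 3 undetermined arrays were 7, 8 and 9. In the fit without these arrays the difference relative to U6 was again 1.54, and it was called. Without control 13 it was 1.01. The wells were late, with a mean Ct of 34.3, and the other arm, miR-142-5p, was measured on 2 arrays, MDP 6 and MDP 12. Among the other leukocyte and red cell miRNAs, miR-223 differed by 0.05, miR-150 by -0.45 and miR-155 by -0.01, and none was called.

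**Figure D1:**
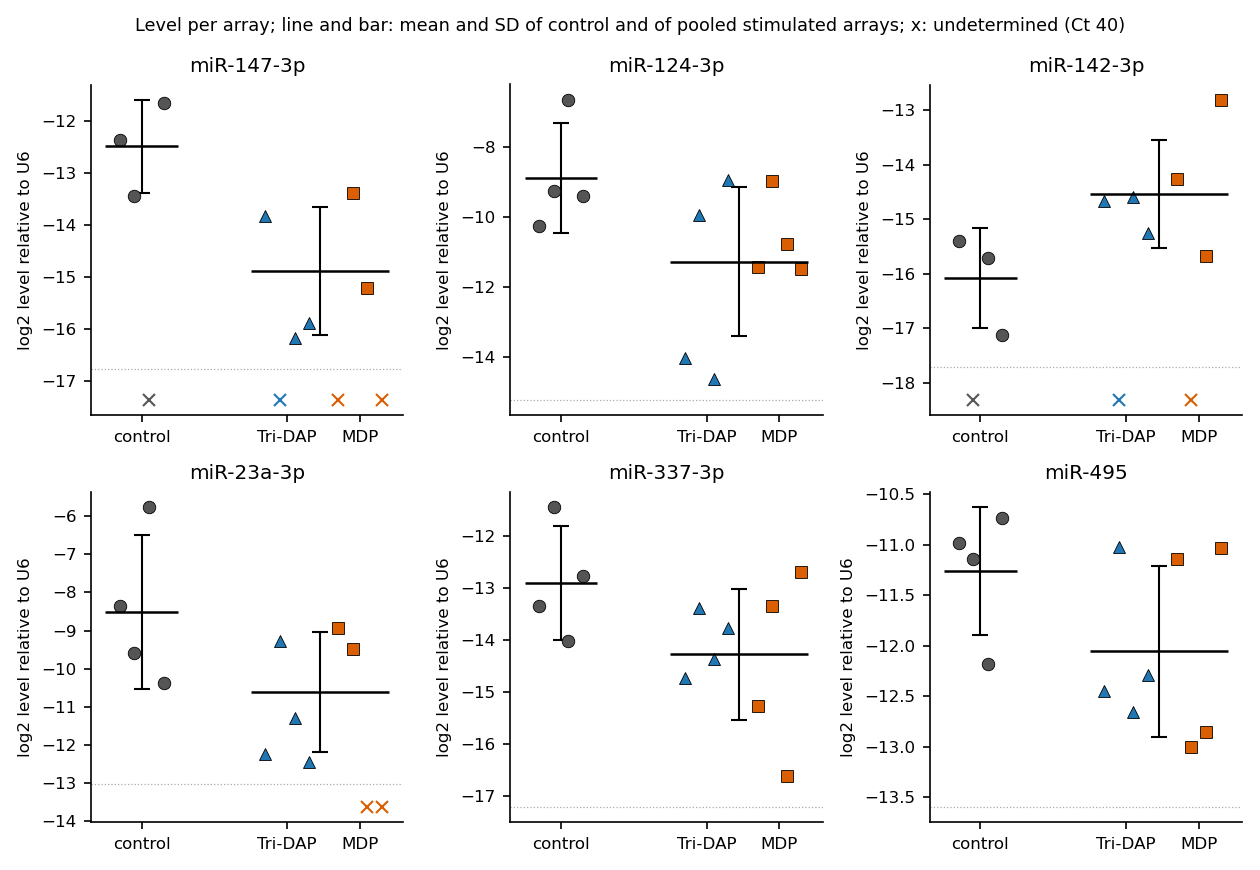
Level of 6 miRNAs on each array, as log2 relative to U6 (vertical axis), for control (circles), Tri-DAP (triangles) and MDP (squares). Horizontal lines and bars are the mean and SD of the control arrays and of the pooled stimulated arrays, and crosses below the dotted line are undetermined wells. In each panel at least 1 stimulated value reaches into the range of the controls.

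Below the limit of the test, the next miRNAs were mostly lower after stimulation, as were 157 of all 235 relative to U6. Relative to the mean of the miRNAs 115 of the 235 were lower. miR-23a-3p, which is processed with miR-27a and miR-24 from one transcript, was at -8.36, -9.58, -5.76 and -10.36 on control arrays 4, 7, 10 and 13. It was at -12.24, -9.28, -11.28 and -12.43 on Tri-DAP arrays 5, 8, 11 and 14 and at -8.94 and -9.49 on MDP arrays 6 and 9, with MDP 12 and 15 undetermined. The 3 lowest values of the measured arrays were all after Tri-DAP, while both MDP values lay within the control range. Its pooled difference was -2.09 (95% interval -4.30 to 0.12; exact permutation p = 0.105), with -2.79 for Tri-DAP and -0.70 for MDP. It was -1.17 without control 10 and -4.64 with the undetermined wells at Ct 40, neither called, and -2.71 without control 13 and -2.21 with consecutive numbers as sets, both called. miR-27a, whose precursor starts 109 bases from mature miR-23a-3p, differed by 0.01 and miR-24 by -0.14.

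miR-337-3p was at -13.36, -11.45, -14.02 and -12.79 on control arrays 4, 7, 10 and 13. After Tri-DAP it was at -14.74, -13.40, -14.37 and -13.78 on arrays 5, 8, 11 and 14, and after MDP at -15.27, -13.35, -16.63 and -12.70 on arrays 6, 9, 12 and 15. 7 of 8 stimulated values were below the control mean, and the groups overlapped. The pooled difference was -1.38 (95% interval -2.92 to 0.17, exact permutation p = 0.105), with -1.17 for Tri-DAP and -1.58 for MDP. With consecutive numbers as sets the same difference was called, and without control 7 it was -0.89. The other arm of the same precursor, miR-337-5p, had the most negative pooled difference of all tested miRNAs, -4.38, but an interval from -11.09 to 2.34 (exact permutation p = 0.370). Its wells formed clusters that cut across the groups, as Ct was 22.4, 21.9 and 21.5 on control 4, control 10 and MDP 6, and between 33.4 and 35.5 on the other 9 arrays.

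miR-187 differed by -2.56 (95% interval -5.54 to 0.43, exact permutation p = 0.139), with -2.44 for Tri-DAP and -2.67 for MDP. It was undetermined on control 4 and ranged from -13.35 to -9.20 on the other controls and from -15.61 to -8.96 on the stimulated arrays, the highest being Tri-DAP 8. Its difference was -1.65 without control 7, -3.72 and called without control 10, and -3.21 and called without Tri-DAP 8. miR-296-3p differed by 1.18 (95% interval -0.47 to 2.83, exact permutation p = 0.167), at 1.13 for Tri-DAP and 1.24 for MDP. It was undetermined on control 7 and MDP 9, and it was 0.59 without control 4 and 1.80 without control 10, neither called, and 1.53 and called without Tri-DAP 14. Its other arm, miR-296-5p, which is known for promoting growth factor receptor signalling in endothelium, differed by 0.37 (exact permutation p = 0.562).

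miR-495, reported to target NOD1, had control levels of -10.98, -11.14, -12.18 and -10.73 on arrays 4, 7, 10 and 13. After Tri-DAP it was at -12.45, -11.03, -12.66 and -12.29 on arrays 5, 8, 11 and 14, and after MDP at -11.14, -13.00, -12.86 and -11.04 on arrays 6, 9, 12 and 15. Of the 8 stimulated arrays 5 lay below every control and 3 within the control range. The pooled difference was -0.80 (95% interval -1.94 to 0.34, exact permutation p = 0.0929) relative to U6 and -0.66 (95% interval -1.31 to -0.02, limma adjusted p = 0.999) relative to the mean of the miRNAs. Tri-DAP at -0.85 and MDP at -0.75 were nearly equal on the U6 scale. Each of the other miRNAs reported to target NOD1 or NOD2 had a negative difference on that scale without being called: miR-192 at -0.39, miR-125a-5p at -0.36, miR-10a at -0.18, miR-146a at -0.14 and miR-320 at -0.02, while miR-122 reached no threshold on any array. The median of the 6 tested was -0.27 relative to U6 and -0.14 relative to the mean of the miRNAs, beside -0.13 and 0.01 over all 235.

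The miRNAs induced through NF-κB gave no common rise. Of 12 on the array, all tested, 0 were called higher and 1, miR-147-3p, was called lower, beside 0 and 2 of all 235. There were 4 positive and 8 negative differences, beside 78 and 157 of all 235. The median was -0.07 relative to U6 and 0.07 relative to the mean of the miRNAs, beside -0.13 and 0.01 over all 235. miR-146a, the feedback regulator of the pathway, was at -4.14, -4.23, -4.14 and -4.63 on control arrays 4, 7, 10 and 13, at -3.88, -3.62, -4.44 and -6.09 on Tri-DAP arrays 5, 8, 11 and 14, and at -3.63, -4.72, -4.43 and -4.63 on MDP arrays 6, 9, 12 and 15. Its controls lay close together, and the stimulated arrays spread to both sides of them. The difference was -0.14 (95% interval -1.19 to 0.91) relative to U6 and -0.01 (95% interval -0.75 to 0.74) relative to the mean of the miRNAs. miR-155, which amplifies inflammatory signalling, was at -6.04, -5.22, -6.12 and -5.76 on the controls, at -5.60, -4.79, -6.23 and -7.01 after Tri-DAP and at -5.17, -5.90, -6.13 and -5.51 after MDP, in the order of array numbers. The groups overlapped, and the difference was -0.01 (95% interval -0.998 to 0.99) and, relative to the mean of the miRNAs, 0.13 (95% interval -0.38 to 0.63). On the second scale an increase beyond 2-fold thus lay outside the interval for both.

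miR-146b, with the seed of miR-146a, differed by 0.23 (95% interval -0.97 to 1.43), and miR-21, a miRNA raised in many inflammatory and injury settings, by -0.03 (95% interval -1.22 to 1.15). The pair miR-221 and miR-222, which act on the growth factor receptor KIT in endothelium, differed by -0.10 and -0.15, the hypoxia-induced miR-210 by -0.17, miR-132 by 0.17, miR-223 by 0.05 and miR-125b-5p by -0.15. The widest interval of the list was that of miR-9, at 1.07 (95% interval -1.04 to 3.17, exact permutation p = 0.352), whose lowest value of all arrays, -15.70, was on control 10. Without control 10 the difference of miR-9 was 0.05. On the second scale with consecutive numbers as sets, miR-9 at 1.199 and miR-132 at 0.30 were called higher (limma adjusted p = 0.846 and adjusted p = 0.855).

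**Figure D2:**
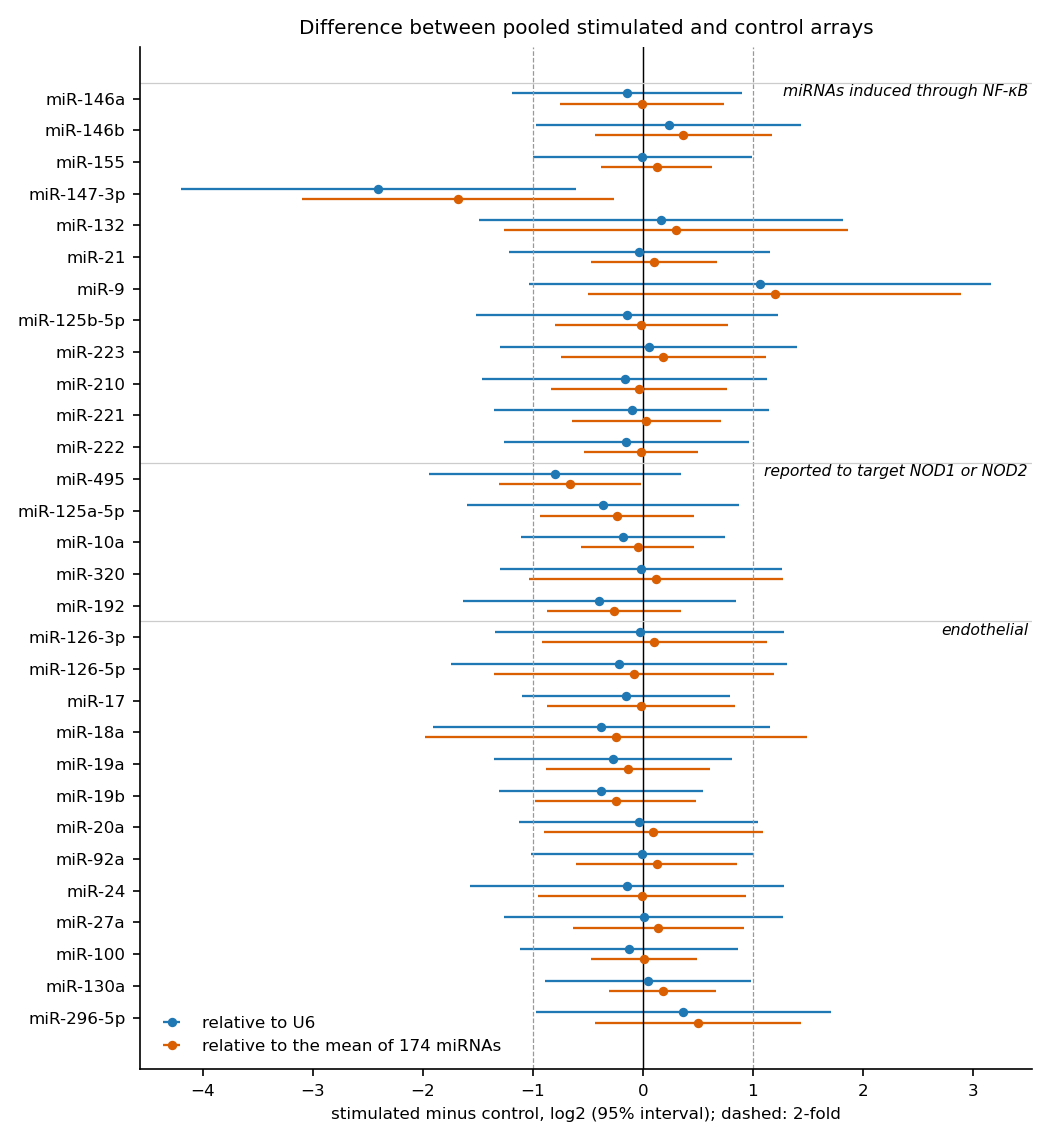
Difference between the 8 stimulated and the 4 control arrays with its 95% interval from limma (horizontal axis, log2), for miRNAs induced through NF-κB, reported to target NOD1 or NOD2, and endothelial miRNAs, relative to U6 and relative to the mean of 174 miRNAs. Most points lie within 0.5 of 0, miR-147-3p excludes 0 on both scales and miR-495 on the second.

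Of the 13 miRNAs known to act on NF-κB signalling or leukocyte adhesion in endothelium, 0 were called in either direction on either scale. Over all 235 the share called was 0.851% relative to U6 and 1.28% relative to the mean of the miRNAs. With shares this low, 0 calls is no result about a list of this size. miR-126-3p, which represses the adhesion molecule VCAM-1, was at 0.02, 0.66, -0.00 and -0.88 on control arrays 4, 7, 10 and 13, at 0.36, 1.42, -0.03 and -2.14 on Tri-DAP arrays 5, 8, 11 and 14, and at 0.83, 0.25, -0.39 and -0.93 on MDP arrays 6, 9, 12 and 15. Its highest and lowest values were on Tri-DAP 8 and Tri-DAP 14, the arrays with the latest and the earliest U6. The difference was -0.03 (95% interval -1.34 to 1.29), and 0.11 (95% interval -0.92 to 1.13) relative to the mean of the miRNAs. miR-31, which represses E-selectin, was at -0.14 (95% interval -1.96 to 1.67), miR-181a at -0.02, miR-181c at -0.45, miR-10a at -0.18, miR-17 at -0.15 and let-7g at -0.25. The list ranged from -0.45 to 0.23 with a median of -0.14.

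The 19 endothelial miRNAs were each measured on all 12 arrays, and 0 were called on either scale, beside 0.851% and 1.28% of all 235. Their differences ran from -0.57 for miR-503 to 0.37 for miR-296-5p, with a median of -0.14 relative to U6 and -0.01 relative to the mean of the miRNAs, beside -0.13 and 0.01 over all 235. The members of the growth-promoting miR-17-92 cluster were at -0.15 (miR-17), -0.38 (miR-18a), -0.27 (miR-19a), -0.38 (miR-19b), -0.04 (miR-20a) and -0.01 (miR-92a). Of the 5 mural and fibroblast miRNAs 0 were called, beside the same share of all 235, and they ranged from -0.29 to 0.07. The 6 tested epithelial miRNAs ranged from -1.17 for miR-200b to 1.19 for miR-200a-3p, and 0 were called, again beside that share. These neighbours on chromosome 4 come from one cluster with miR-429, which was at 0.19. miR-200b spanned -12.92 to -5.81 on the controls and -11.48 to -8.51 on the stimulated arrays. Its highest control level, -5.81 on array 4, lay above every stimulated value, and controls 7, 10 and 13 were at -12.92, -9.62 and -9.12. The difference of miR-200b was -2.36 without control 7 and -2.20 without arrays 7, 8 and 9, and it was called in both. Both of these fits kept control 4.

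Of the 10 miRNAs that the study's screen listed as regulated, all were tested. They had been chosen on the same arrays from the ligand comparisons, so that neither their directions nor their calls are independent here. miR-147-3p was called in the pooled comparison and the other 9 were not. The 0.851% called of all 235 is no fair background for these 10. They were picked on these arrays, and miR-147-3p is itself 1 of the 2 calls in that share. 8 of the 10 had a negative pooled difference, with a median of -0.72, and in 8 of the 10 both ligands lay on one side of the control. miR-298-5p was at -10.62, -9.87, -14.55 and -10.82 on control arrays 4, 7, 10 and 13, at -12.28, -10.44, -12.35 and -13.83 on Tri-DAP arrays 5, 8, 11 and 14, and at -12.20, -10.49, -12.91 and -10.90 on MDP arrays 6, 9, 12 and 15. Its lowest value was on control 10, and the difference was -0.46 (95% interval -2.33 to 1.41, exact permutation p = 0.612), with -0.76 for Tri-DAP and -0.16 for MDP. Without control 10 it was -1.49 and not called, and without control 7 it was 0.07. miR-193a-3p was at -0.74, miR-203-3p at -0.76, miR-423-5p at -0.70 and miR-667-3p at -0.25, with exact permutation p from 0.174 to 0.713. For miR-667-3p the ligands lay on opposite sides of the control, at -0.82 for Tri-DAP and 0.32 for MDP. The levels of miR-423-5p were -13.33, -10.90, -13.61 and -13.73 after Tri-DAP and -10.22, -12.55, -11.93 and -11.67 after MDP. Its controls ranged from -12.07 to -11.15. miR-200a-3p was at 1.19 (95% interval -0.87 to 3.25, exact permutation p = 0.300). Its levels were -14.56, -11.71 and -9.50 on controls 7, 10 and 13 and -11.63, -11.86 and -10.99 on Tri-DAP 5, 11 and 14. On MDP 6, 9, 12 and 15 they were -10.30, -10.07, -10.95 and -9.34. Without control 13 its pooled difference was 2.40 and called at the unadjusted limit. Without control 7 this difference was -0.13, and without arrays 7, 8 and 9 it was -0.24. miR-203-3p was at -1.26 without control 7 and at -1.36 without arrays 7, 8 and 9, and called in both.

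For miR-343, read by a rat assay, the ligands lay on opposite sides of the control. Its control levels were -13.44, -13.76, -15.49 and -14.26 on arrays 4, 7, 10 and 13. After Tri-DAP it was -15.81 and -16.91 on arrays 5 and 14 and undetermined on arrays 8 and 11, and after MDP it was -12.78, -14.15, -12.78 and -13.00 on arrays 6, 9, 12 and 15. Both measured Tri-DAP values lay below every control, and 3 of the 4 MDP values above every control. The pooled difference was 0.00 (95% interval -1.94 to 1.94), made up of -2.12 for Tri-DAP and 1.06 for MDP. MDP minus Tri-DAP was estimated at 3.18 (95% interval 1.45 to 4.92) and did not pass the adjusted limit (adjusted p = 0.462 by limma).

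The ligands were compared in direction over all tested miRNAs, with the caution that both differences use the same 4 control arrays, so that a departure of the controls moves both alike. A shared side is therefore the more frequent outcome even without any response, and the share to expect then was not computed. Relative to U6, 166 of 235 miRNAs (70.6%) had both ligands on one side of the control, 118 with both below and 48 with both above. In 58 the Tri-DAP mean was below and the MDP mean above, and in 11 the reverse. Relative to the mean of the miRNAs, 167 had both on one side, now 81 below and 86 above. With the median in place of the mean of the 4 U6 wells, 89 of 235 had both on one side, without MDP 12 this number was 106 of 231, and without arrays 7, 8 and 9 it was 94 of 220. The median pooled difference was -0.13 relative to U6, -0.31 without Tri-DAP 8 and 0.02 without Tri-DAP 14. MDP and Tri-DAP differed at an unadjusted p under 0.05 for 7 of 235 miRNAs (2.98%), each with MDP higher: miR-343, miR-674, miR-590-5p, miR-1, miR-547, miR-448 and miR-196b. Their pooled differences lay between -0.90 and 0.91, and the smallest adjusted p was 0.462 (limma).

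**Figure D3:**
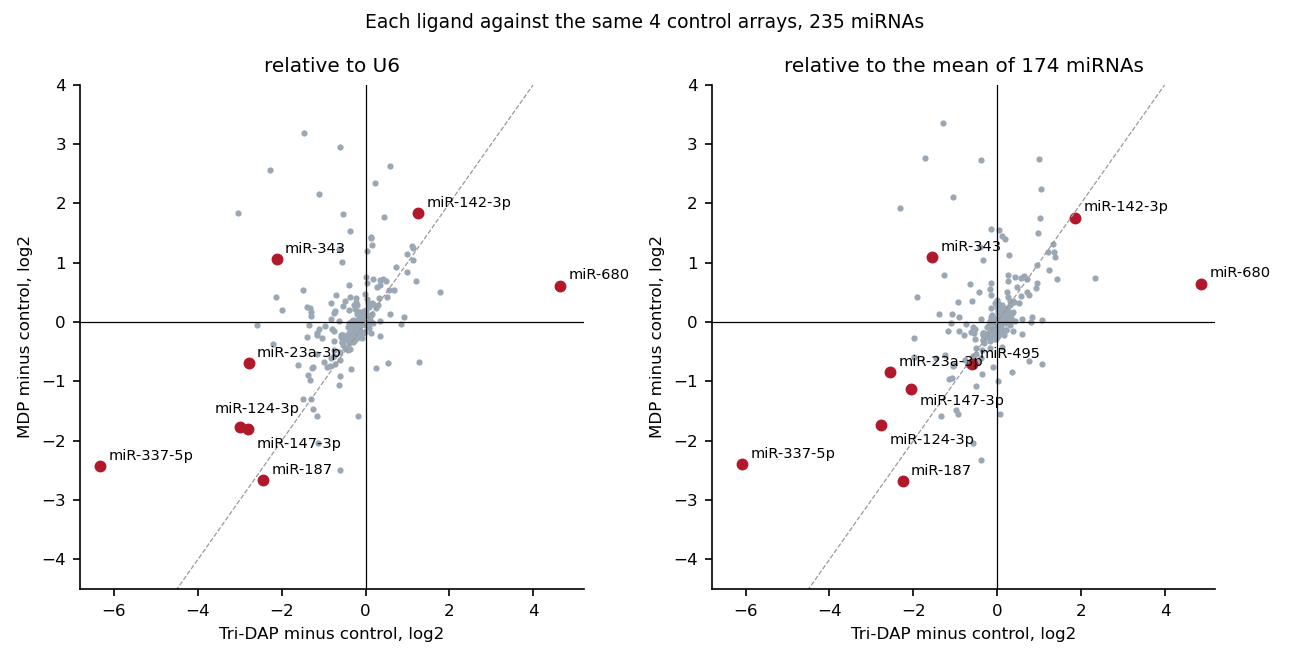
Difference of Tri-DAP (horizontal axis) and of MDP (vertical axis) from the same 4 control arrays, log2, for 235 miRNAs, relative to U6 (left) and to the mean of 174 miRNAs (right). The dashed line marks equal differences, and red points are miRNAs named in the text. On the left 118 points lie in the lower left and 48 in the upper right quadrant, on the right 81 and 86.

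Of 28 miRNAs whose pooled difference exceeded 2-fold (18 lower and 10 higher), 13 exceeded 2-fold for each ligand in the same direction, 9 lower and 4 higher. Besides those described, miR-434-5p (-1.34), miR-450a-5p (-1.65), miR-344 (-1.41) and miR-345-3p (-1.30) were on the lower side. On the higher side were miR-685 (1.19) and miR-367 (1.09), and none of these was called. For miR-450a-5p the MDP difference of -2.04 rested on 1 late well, at Ct 39.7 and a level of -21.03 on MDP 12. Its other MDP arrays lay between -12.84 and -12.16, and its measured controls between -13.37 and -12.28. The median Ct of the 28 was 32.1, against 29.8 for the others. The most positive difference, 2.62 for miR-680, rested on 1 well: its Ct was 10.6 on Tri-DAP 11 and 28.9 or later on the other arrays. Without wells under Ct 15 the difference of miR-680 was 0.13.

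miR-337, miR-434 and miR-495 lie in the imprinted cluster on chromosome 12. Of its 23 miRNAs that were tested and placed by name, between chr12:109585789 and chr12:109743795, 19 had a negative and 4 a positive pooled difference, beside 157 negative of all 235. On the second scale 17 of the 23 were negative, beside 115 of 235. None of the 23 (0) was called, beside 0.851% of all 235 relative to U6. The median was -0.52 relative to U6 and -0.34 relative to the mean of the miRNAs. The cluster was singled out after its values were seen. Its median Ct of 31.9 was later than that of all tested miRNAs, 30.1. Within it miR-543 was at 1.40, miR-379 at 0.03 and miR-494 at -0.02.

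The mouse and rat assays of one miRNA, and both arms of one precursor, were set side by side by their pooled differences relative to U6. The mouse assay of miR-339-3p was at -0.71 and its rat assay at 0.92, and the mouse assay of miR-532-5p was at -0.07 and its rat assay at -1.42. For miR-345-3p they were at -1.30 and 0.02, for miR-224 at -0.16 and 0.01 and for miR-351 at -0.08 and -0.30. Both arms of miR-126 were at -0.03 and -0.21, of miR-125a at -0.36 and -0.27, and of miR-335 at -0.23 and -0.46, whereas miR-125b-5p was at -0.15 and miR-125b-3p at -1.01.

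Detection gave no call either. Of 146 miRNAs measured on 1 to 11 arrays, 0 differed in the share of arrays with a measured well (Fisher's exact test, two-sided, 0%), and the smallest p was 0.0909, with an adjusted p of 1. This Fisher p was reached by miR-190, measured on all 8 stimulated and 2 of 4 control arrays at a median Ct of 34.9, and by miR-329, miR-486 and miR-598, each measured on 2 control arrays and on 0 of 8 stimulated arrays. miR-486 is a miRNA of red cells and muscle. miR-136 was measured on 4 of 4 control and 4 of 8 stimulated arrays (p = 0.208) and miR-409-5p on 3 of 4 and 2 of 8 (p = 0.222). In all, 29 miRNAs were measured on stimulated arrays alone, 18 of them on 1 array, and 7 on control arrays alone, 4 of them on 1 array. With 8 stimulated and 4 control arrays, a miRNA measured on 1 array falls more often on the stimulated side without any response. The 29 included miR-615-5p and miR-675-5p, each measured on 1 array, at Ct 9.64 and 11.96. A count of 0 here means that no well reached the threshold within 40 cycles, not that the miRNA was absent.

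The width of the intervals shows what these arrays could resolve. Relative to U6 the median half-width of the 95% interval was 1.44 on the log2 scale, and for 6 of 235 miRNAs the interval lay within 2-fold of no change. Relative to the mean of the miRNAs the median half-width was 1.12 and 78 intervals lay within 2-fold. For 24 miRNAs with a mean Ct under 25, differences on the second scale ran from -0.25 to 0.12 and 21 of 24 intervals lay within 2-fold. For 91 miRNAs between Ct 25 and 30 this held for 47, and for 120 later than 30 for 10. The calls on both scales were among these late 120, and 0 were among the 115 earlier ones.

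**Figure D4:**
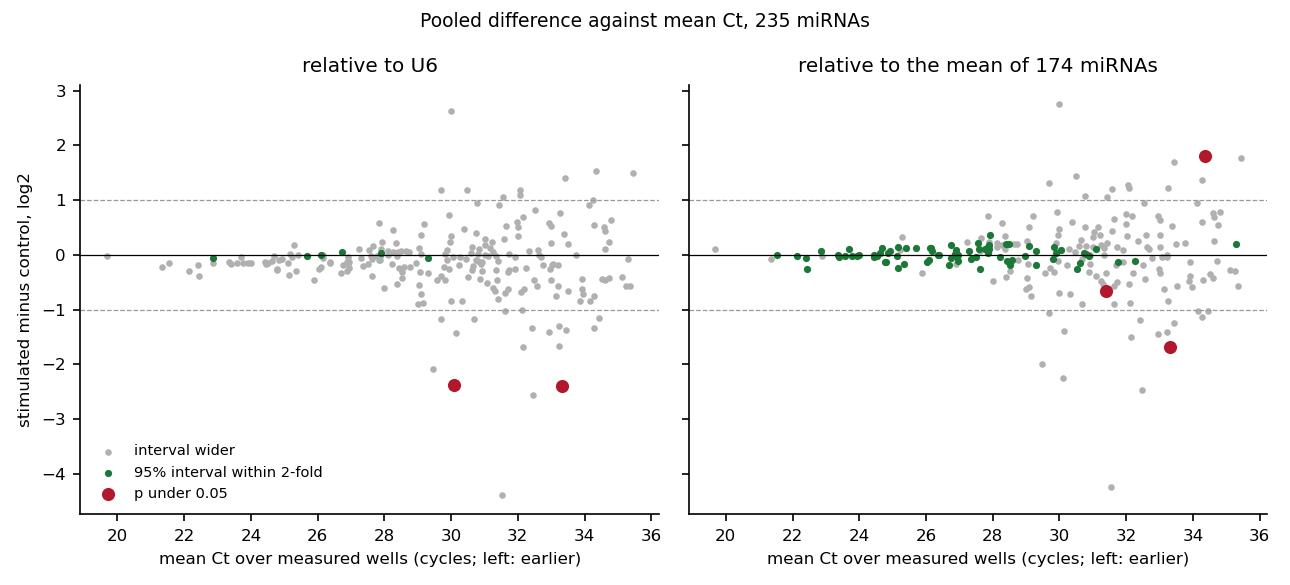
Pooled difference (vertical axis, log2) of 235 miRNAs against their mean Ct over measured wells (horizontal axis, cycles), relative to U6 (left) and to the mean of 174 miRNAs (right). Red points have a limma p under 0.05, green points a 95% interval within 2-fold (dashed lines), of which there are 6 on the left and 78 on the right.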

How the data were processed

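Total RNA of murine pulmonary endothelial cells was profiled on 12 TaqMan low-density arrays (rodent set A), 4 per treatment. According to the methods, 350 ng of RNA were reverse-transcribed and Ct values read with an automatic threshold over 40 cycles. The authors deposited raw Ct (a score in cycles, set to 40 in wells without a signal) and, on a log2 scale, Ct from which the array's average U6 (4 wells) had been subtracted, as a check of all 384 wells showed. Fold changes that the authors deposited hold their own comparisons and were not used, nor were 12 unnamed columns.

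Here the sign of these log2 values was reversed and wells at 40 were treated as missing. Stimulated arrays (n = 8) were compared with controls (n = 4) with limma 3.58.1 (lmFit, eBayes; R 4.3.3), without a block, for miRNAs with at least 2 measured values per treatment. Calls required an unadjusted p below 0.05, and Benjamini-Hochberg values are given beside them. Ligands were compared in a fit with 3 group means, single miRNAs and reference RNAs by a two-sided exact permutation test, and detection by Fisher's exact test. The fit was tested on simulated data. The members and lists were chosen with earlier results of these data known. Named were the called miRNAs, those without overlap, the 6 smallest detection p, the 10 miRNAs the study's screen listed and up to 4 per list, besides others of small p, pairs of arms and the cluster on chromosome 12, chosen after their values were seen. Alternatives covered undetermined and early wells, the reference, the filter, the test, sets of consecutive arrays, and arrays left out, each in turn and 7, 8 and 9 together. The methods give 4 separate cell isolations, but the labels do not say which arrays share one, so p-values measure the spread between these arrays without that pairing.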

Additional observations from a re-analysis of the deposited data

Results flagged for a closer look

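Among 74 sets of 4 values (the control, Tri-DAP or MDP arrays of a miRNA described above), 3 held 1 array far from the others by Dixon's test, where chance gives about 1 in 20, or 3.7. miR-343 was at -14.15 on MDP 9 against -13.00 to -12.78 on the other MDP arrays. miR-423-5p was at -10.90 on Tri-DAP 8, the array with the latest U6, where the remaining Tri-DAP arrays lay between -13.73 and -13.33. miR-203-3p was at -14.54 on control 7 against -12.75 to -12.41 on the other controls, and its pooled difference was called without that array.

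For miR-343, one of the miRNAs the study's screen listed from these arrays, MDP lay 3.18 above Tri-DAP (log2) at an unadjusted p under 0.05, and the difference did not pass adjustment (adjusted p = 0.462 by limma over 235 miRNAs). It rests on 2 measured Tri-DAP arrays, since arrays 8 and 11 were undetermined.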

How the results depend on the processing

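The labels give every array a number of its own and tie none together, so arrays of consecutive numbers were entered as sets only as an alternative. Deviations from the group means correlated from -0.12 to 0.83 (median 0.30, 9 of 12 over 0.1) within 12 pairs of a set and from -0.64 to 0.32 (median -0.11) within 36 other pairs. With this block 3 miRNAs were called, all lower: miR-124-3p as before, miR-337-3p and miR-23a-3p in addition, while miR-147-3p was not. Leaving out arrays 7, 8 and 9, chosen after seeing the data, gave 7 calls (2 higher, 5 lower) and 94 miRNAs with both ligands on one side. No miRNA passed the adjusted limit in the pooled comparison in any of 29 alternatives (smallest adjusted p 0.846 by limma), and calls ranged from 0 to 13. Beside the 2 calls of the report, both lower, there were 0 with undetermined wells at Ct 40 and 0 by the exact permutation test. There was 1 call, lower, among miRNAs measured on all 12 arrays, and with at least 3 values per group there was 1 in each direction. Relative to the mean of the miRNAs 1 was higher and 2 were lower. Relative to U6 and snoRNA202 there were 4 calls, 1 of them higher, without normalization 5 (1 higher, 4 lower), and with the median of the U6 wells 1 in each direction. With array weights there were 10 (2 higher, 8 lower), and with the mean of the miRNAs and sets together 13 (8 higher, 5 lower). Without Tri-DAP arrays 8 and 14 there were 5, 2 of them higher. Leaving out 1 array gave 1 to 7 calls, 0 to 2 higher and 0 to 6 lower: 7 without Tri-DAP 8, 4 without Tri-DAP 14, 1 without Tri-DAP 5, Tri-DAP 11, MDP 9 or MDP 12, and 0 lower without MDP 12. miR-147-3p had too few values to be tested without MDP 9 or MDP 12. miR-124-3p was not called without control 7, 10 or 13, Tri-DAP 5 or 11, or MDP 6, 12 or 15. The number of miRNAs with both ligands on one side of the control was 106 to 179 with 1 array left out, the lowest without MDP 12, and 89 with the median of the U6 wells. The cause of these changes was not tested. Detection gave 0 calls in each of its alternatives. Well-to-well SD of U6 within an array, 0.112 to 2.05 cycles, limits the precision relative to U6.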
